A study of Mus musculus with 16 samples.

Results

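The unfolded protein response and the integrated stress response were followed through 37 genes in 4 sorted cell populations of the mouse mammary gland, from mice with and without Cpeb2, which encodes a cytoplasmic polyadenylation element binding protein that acts on the translation of mRNAs. The genes form 4 arms: 14 endoplasmic reticulum (ER) chaperones and folding enzymes, 5 genes of the stress sensors and the XBP1 branch, 8 genes of ER-associated degradation (ERAD), and 10 genes of the ATF4 branch. Each gene was read by the probe set annotated to it alone that had the highest mean over all 16 arrays. All 37 were measured among 17097 genes, 21 of them by several probe sets and 16 by 1. The arrays came from 4 female mice of 10 weeks on a mixed C57BL/6J and 129 background (line DMI): 2 knockout mice (Sox2-Cre +/+ and Cpeb2 -/-) and 2 wild-type mice (Sox2-Cre +/+ and Cpeb2 +/+). All 4 mice carried Sox2-Cre, a transgene active in the early embryo, so the deletion was not limited to the mammary gland, and no group without Cre was included. From each mouse, untreated and freshly sorted cells gave 4 arrays: non-clonogenic luminal cells (Sca1+ CD49b-), ductal progenitors (Sca1+ CD49b+), alveolar progenitors (Sca1- CD49b+), all 3 from the Epcam high CD49f low luminal gate, and myoepithelial cells (Epcam low CD49f high). Mouse 1 of the knockout and mouse 1 of the wild type had the same parents, and both mice numbered 2 had the other parents. Each array began from 15 ng of total RNA that was amplified. Every p-value below measures the spread between the 2 arrays of a group, pooled over the 8 groups of genotype and population. The fit treats the 4 arrays of a mouse as nearly independent (consensus correlation 0.0383). Tests of the knockout over the populations thus count arrays, while there were only 2 mice a genotype. In bulk RNA, fewer cells of a type and less RNA per cell cannot be told apart.

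Unfolded proteins in the ER are sensed by IRE1 (Ern1), PERK (Eif2ak3) and ATF6. IRE1 splices the Xbp1 mRNA, and XBP1 and ATF6 then raise transcription of chaperones and of the machinery that sends misfolded proteins to the proteasome. PERK and other kinases phosphorylate the translation factor eIF2α, which lowers protein synthesis as a whole while ATF4 is translated, and ATF4 drives genes of amino acid synthesis and import, of redox balance and of feedback. In the mammary gland these pathways are known for their part in secretory differentiation and lactation. Arrays of this type report mRNA abundance and do not report Xbp1 splicing, eIF2α phosphorylation or ATF4 protein.

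The arms are known for different promoter elements, and stretches of 30 bases are printed here to show them for the genes on which the results below turn. RefSeq promoters (build GRCm38.p6, 250 bases before to 50 bases after the annotated start) were found for 33 of the 37 genes; none was found for Derl1, Atf6, Hyou1 and Manf. Searched on both strands, the ER stress element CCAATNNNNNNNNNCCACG, through which ATF6 acts together with NF-Y, was in 9 of the 33 (Hspa5, Hsp90b1, Calr, Canx, Pdia6, Dnajc3, Creld2, Syvn1 and Derl3), and in 0.119% of all 32851 promoters of that length. Its shorter variant ATTGGNCCACG was in Dnajb11 and Herpud1 and in 0.0365% of all promoters. The XBP1 element TGACGTGG was in 0 of the 33 and in 0.676% of all. The composite C/EBP and ATF element TGATGNAA, which ATF4 binds, was in Asns, Chac1, Trib3, Slc7a11 and Herpud1 and in 3.97% of all. Matches of different elements did not overlap. Members were counted by gene, with a match in any promoter of the gene, while the percentages are of single promoters (32851 for 27025 gene symbols). Searches of this kind match letters and show no binding. Capitals mark the matched element, and each stretch is written 5′ to 3′ on the strand of its gene.
Hspa5, chr2:34772020-34772049, plus strand: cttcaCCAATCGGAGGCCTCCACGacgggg
Hsp90b1, chr10:86705632-86705661, minus strand: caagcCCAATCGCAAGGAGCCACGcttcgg
Dnajc3, chr14:118937822-118937851, plus strand: cacaaCCAATCAGCGCCAACCACGacccgg
Herpud1 (shorter variant), chr8:94386368-94386397, plus strand: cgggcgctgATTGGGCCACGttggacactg
Asns (composite element), chr6:7693214-7693243, minus strand: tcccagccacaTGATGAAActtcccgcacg
Slc7a11 (composite element), chr3:50443661-50443690, minus strand: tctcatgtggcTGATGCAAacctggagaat
Chac1 (composite element, reverse complement), chr2:119351038-119351067, plus strand: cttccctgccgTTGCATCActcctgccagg

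The labels of the arrays were first set against genes that were not members. Cpeb2 was lower in the knockout over the 4 populations by 0.92 on the log2 scale (log2 change -0.92, adjusted p = 0.0201), from 8.33 and 8.66 in the wild type to 6.42 and 7.67 in the knockout in non-clonogenic luminal cells, while in alveolar and myoepithelial arrays it was low in both genotypes; whether its probe set lies in the deleted part is not given. All 9 myoepithelial markers were higher and all 10 luminal markers lower in the myoepithelial arrays, and all 7 hormone-sensing markers were higher in both Sca1+ populations than in alveolar progenitors. Replicate arrays correlated at 0.975 to 0.991. Genes of cell division were lower in the knockout in all populations, with list medians between -2.49 and -1.64, and 18 of 19 were called over the 4 populations.

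Levels are log2 values per probe set, and a difference of 1 is a doubling. The 4 populations are compared first. A gene was called when limma's Benjamini-Hochberg adjusted p over all 17097 genes was below 0.05. In myoepithelial cells against the mean of the 3 luminal populations, 17 of the 37 genes were called, 14 higher and 3 lower. Over all genes 48.0% were called, 23.5% higher and 24.4% lower, so the members' total was near the background. An F test across the 4 populations called 15 members, against 49.8% of all genes. Between ductal and alveolar progenitors 7 members were called, 4 higher and 3 lower in ductal progenitors (22.0% of all genes, 11.3% higher and 10.7% lower). Between non-clonogenic luminal cells and alveolar progenitors 11 members were called, 6 higher and 5 lower (28.5% of all genes, 15.9% higher and 12.6% lower). No member separated the Sca1+ populations from each other: 0 were called between non-clonogenic luminal cells and ductal progenitors, 0 had an unadjusted p under 0.05, and 0.795% of all genes were called. By mean level, 20 members were highest in myoepithelial cells, 10 in non-clonogenic luminal cells, 4 in alveolar progenitors and 3 in ductal progenitors. The heat map of all members by array shows this division.

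**Figure D1:**
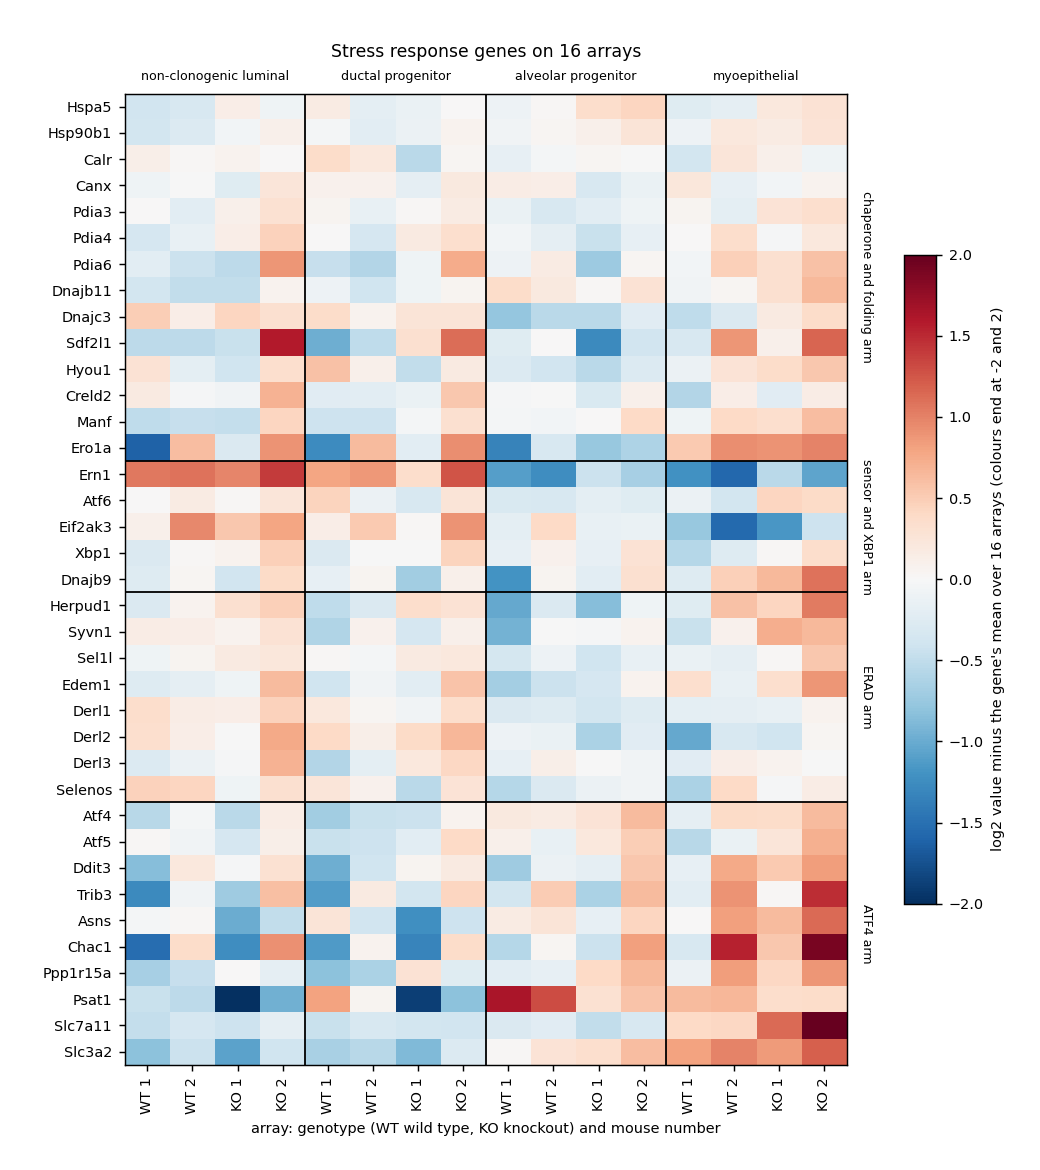
Level of each of the 37 genes (lines, grouped by arm) on each of the 16 arrays (columns, grouped by population and genotype), as log2 value minus the gene's mean over the arrays, with colours ending at -2 and 2. Ern1 is high in both Sca1+ populations, Psat1 is lowest in the arrays of knockout mouse 1 from these populations, and Slc7a11 is highest in knockout myoepithelial arrays.

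In the chaperone and folding arm 4 of 14 genes were called in myoepithelial against luminal cells (48.0% of all genes were). In ductal against alveolar progenitors 1 was called (22.0%), and in non-clonogenic luminal against alveolar cells 3 were (28.5%). Dnajc3 had the lowest adjusted p of the called genes. Dnajc3 encodes p58IPK, a co-chaperone of the ER lumen and an inhibitor of PERK. Dnajc3 was 10.91 and 10.56 in the wild type and 10.85 and 10.75 in the knockout in non-clonogenic luminal cells, 10.78 and 10.49 in the wild type and 10.67 and 10.68 in the knockout in ductal progenitors, and 9.65 and 9.88 in the wild type and 9.88 and 10.20 in the knockout in alveolar progenitors. All 8 arrays of the Sca1+ cells lay above all 4 alveolar arrays. The differences from alveolar progenitors were 0.86 (SE 0.12, adjusted p = 0.000215) for non-clonogenic luminal cells and 0.75 (SE 0.12, adjusted p = 0.000857) for ductal progenitors, and the 4 other probe sets of the gene gave 0.38 to 0.93 for the former. Without knockout mouse 1 the ductal difference was no longer called (0.68, adjusted p = 0.0578).

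Hspa5 and Dnajb11 went the other way. Hspa5, which encodes BiP, the main ER chaperone and the partner that holds the sensors inactive, was somewhat below its alveolar level in non-clonogenic luminal cells (-0.34, SE 0.089, adjusted p = 0.0126). Its alveolar values were 11.89 and 12.01 in the wild type and 12.34 and 12.42 in the knockout and its non-clonogenic luminal values 11.61 and 11.68 in the wild type and 12.12 and 11.90 in the knockout. Arrays of each genotype did not overlap between these populations, while the groups overlapped when genotypes were joined. Dnajb11, an Hsp40 co-chaperone of BiP, was lower in the same comparison (-0.54, SE 0.14, adjusted p = 0.0131). Both calls were lost without some arrays and mice: without knockout mouse 2 Hspa5 was at -0.26 (adjusted p = 0.259), and without knockout mouse 1 Dnajb11 was at -0.46 (adjusted p = 0.135).

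In myoepithelial cells the arm's median difference from the luminal mean was 0.19, against 0.02 over all genes. Of the 14, 4 were called higher, near the share of all genes (23.5%), and 0 lower (24.4% of all genes). The 4 were Ero1a, the oxidase that recharges protein disulfide isomerases (1.11, SE 0.40, adjusted p = 0.0369), Manf, a secreted BiP-binding factor (0.42, SE 0.14, adjusted p = 0.0265), Dnajb11 (0.31, SE 0.12, adjusted p = 0.0453), and Hsp90b1, which encodes GRP94 (0.19, SE 0.071, adjusted p = 0.0444). Leaving out single arrays ended the call of Ero1a in 10 of 16 cases, of Dnajb11 in 13, of Hsp90b1 in 12 and of Manf in 3. The highest adjusted p was 0.205 for Dnajb11 (0.24 without the myoepithelial array of knockout mouse 2), and without that of wild-type mouse 2 Hsp90b1 was at 0.11 (adjusted p = 0.205) and Manf at 0.30 (adjusted p = 0.126). The other 8 members, which were called in no population comparison, are the lectin chaperones Calr and Canx, the disulfide isomerases Pdia3, Pdia4 and Pdia6, the BiP cofactor Sdf2l1, the nucleotide exchange factor Hyou1, and Creld2. For Hyou1 this holds for its brightest probe set (0.35 in myoepithelial against luminal cells). A second probe set gave 0.82 there (SE 0.20, limma adjusted p = 0.006 over all probe sets) and the third 0.47. Canx had the smallest spread of all members between population means (0.084).

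Among the sensors Ern1 had the largest differences between populations. It encodes IRE1, the kinase and RNase that splices Xbp1. It was 10.12 and 10.15 in the wild type and 10.03 and 10.46 in the knockout in non-clonogenic luminal cells, 9.86 and 9.93 in the wild type and 9.41 and 10.33 in the knockout in ductal progenitors, 7.97 and 7.82 in the wild type and 8.64 and 8.41 in the knockout in alveolar progenitors and 7.86 and 7.50 in the wild type and 8.53 and 8.02 in the knockout in myoepithelial cells. All 8 Sca1+ arrays lay above all 8 others. The difference from alveolar progenitors was 1.99 (SE 0.20, adjusted p = 1.01e-05) for non-clonogenic luminal cells and 1.67 (SE 0.20, adjusted p = 6.72e-05) for ductal progenitors, and that of myoepithelial cells from the luminal mean was -1.45 (SE 0.16, adjusted p = 1.17e-05). These calls held in each of the 20 refits that left out 1 mouse or 1 array, and the 4 other Ern1 probe sets had the same sign, 0.15 to 1.60 for non-clonogenic luminal against alveolar cells.

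Eif2ak3, which encodes PERK, was also lower in myoepithelial cells (-1.29, SE 0.22, adjusted p = 0.000361). Its values there were 6.48 and 5.68 in the wild type and 6.09 and 6.83 in the knockout, below all 12 luminal arrays, of which the lowest was 7.04. That fall was of the brightest probe set; the 2 others gave -0.18 and -0.19. Dnajb9, an XBP1 target that encodes the IRE1 repressor ERdj4, was higher in myoepithelial cells (0.65, SE 0.23, adjusted p = 0.0355), a call lost without 7 of the 16 arrays in turn (0.49, adjusted p = 0.141, without the myoepithelial array of wild-type mouse 2). Xbp1 and Atf6 were called in no population comparison: Xbp1 had means between 10.73 in myoepithelial cells and 10.91 in non-clonogenic luminal cells.

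The ERAD genes were lowest by mean in alveolar progenitors for 6 of 8 members. All 8 had a mean above the alveolar one in non-clonogenic luminal cells, with a median of 0.47 against 0.031 over all genes. Of the 8, 4 were called higher, against 15.9% of all genes. These were Herpud1, a membrane scaffold of the degradation complex (0.71, SE 0.23, adjusted p = 0.0321), the retrotranslocation factors Derl1 (0.57, SE 0.13, adjusted p = 0.00461) and Derl2 (0.58, SE 0.20, adjusted p = 0.0457), and Sel1l, the partner of the ubiquitin ligase HRD1 (0.34, SE 0.12, adjusted p = 0.048). Derl1 held its call without each single array, while Sel1l lost it without 11 of 16, Derl2 without 13 and Herpud1 without 5. Without wild-type mouse 1 or knockout mouse 2 the Derl1 call was lost as well (0.51 both times, adjusted p = 0.0535 and 0.0828). For the others the highest adjusted p was 0.207 for Derl2 (0.39 without the luminal array of knockout mouse 2), and 0.149 for Herpud1 (0.53) and 0.174 for Sel1l (0.28) without the alveolar array of knockout mouse 1. Derl1 was 9.73 and 9.53 in the wild type and 9.50 and 9.83 in the knockout in non-clonogenic luminal cells, 9.59 and 9.41 in the wild type and 9.30 and 9.73 in the knockout in ductal progenitors, 9.08 and 9.11 in the wild type and 9.01 and 9.12 in the knockout in alveolar progenitors and 9.18 and 9.19 in the wild type and 9.22 and 9.45 in the knockout in myoepithelial cells. All 8 Sca1+ arrays lay above the 4 alveolar arrays. Both other Derl1 probe sets gave larger differences between non-clonogenic luminal and alveolar cells (0.96 and 1.01). Derl1 and Derl2 were also higher in ductal than in alveolar progenitors by 0.42 (SE 0.13, adjusted p = 0.0294) and 0.66 (SE 0.20, adjusted p = 0.0303), calls that were lost whichever of the 4 mice was left out (adjusted p up to 0.293 and 0.144).

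In myoepithelial cells the ERAD arm was split. Herpud1 (0.60, SE 0.18, adjusted p = 0.0168) and Edem1, a lectin that hands mannose-trimmed glycoproteins to degradation (0.47, SE 0.17, adjusted p = 0.0415), were higher, and Derl2 was lower (-0.57, SE 0.16, adjusted p = 0.0115). Without the myoepithelial array of knockout mouse 2 Herpud1 was at 0.46 (adjusted p = 0.111) and Edem1 at 0.35 (adjusted p = 0.199), and without that of wild-type mouse 1 Derl2 was at -0.39 (adjusted p = 0.0712). Syvn1, which encodes HRD1, Derl3 and Selenos were called in no population comparison.

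In the ATF4 arm all 10 members had a higher mean in myoepithelial cells than the mean of the 3 luminal populations. By single populations, 7 were highest in myoepithelial cells and 3 (Psat1, Atf4 and Atf5) in alveolar progenitors. Against the luminal mean the median difference was 0.70, against 0.02 over all genes, and 7 were called higher (23.5% of all genes were). The largest difference was in Slc7a11, the cystine importer of system xc-. It was 5.29 and 5.31 in the wild type and 6.02 and 7.21 in the knockout in myoepithelial arrays, and every luminal array lay between 4.41 and 4.71. All 12 luminal values were under the lower quartile of their array, so the difference of 1.42 (SE 0.15, adjusted p = 5.67e-06) is limited by background. A dimmer second probe set gave 3.01. Its partner chain Slc3a2, which also serves other amino acid transporters, was 11.93 and 12.12 in the wild type and 11.97 and 12.31 in the knockout in myoepithelial cells, 11.15 and 11.39 in the wild type and 11.46 and 11.74 in the knockout in alveolar progenitors, 10.48 and 10.56 in the wild type and 10.23 and 10.84 in the knockout in ductal progenitors and 10.29 and 10.69 in the wild type and 10.05 and 10.72 in the knockout in non-clonogenic luminal cells. The myoepithelial arrays were all above the alveolar arrays, and these were all above the Sca1+ arrays. The myoepithelial difference was 1.28 (SE 0.14, adjusted p = 8.49e-06).

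Asns, asparagine synthetase, was 9.65 and 10.46 in the wild type and 10.27 and 10.77 in the knockout in myoepithelial cells, 9.81 and 9.90 in the wild type and 9.48 and 10.08 in the knockout in alveolar progenitors, 9.89 and 9.25 in the wild type and 8.42 and 9.24 in the knockout in ductal progenitors and 9.60 and 9.67 in the wild type and 8.65 and 9.15 in the knockout in non-clonogenic luminal cells. Myoepithelial and alveolar arrays overlapped, and the knockout arrays of the Sca1+ populations were the lowest. Its myoepithelial difference was 0.86 (SE 0.20, adjusted p = 0.00316). Further called members were Ppp1r15a, which encodes GADD34, the phosphatase subunit that reverses eIF2α phosphorylation (0.68, SE 0.16, adjusted p = 0.00447), the serine synthesis enzyme gene Psat1 (0.67, SE 0.21, adjusted p = 0.0204), and Ddit3, which encodes CHOP (0.65, SE 0.22, adjusted p = 0.0267). Atf4 itself was just past the threshold (0.40, SE 0.15, adjusted p = 0.0476), and its second probe set gave 0.03. The myoepithelial means of Psat1 and Atf4 lay below their alveolar means (9.71 against 10.16 and 10.99 against 11.01). Both calls thus rest on the lower values of the Sca1+ populations. Slc7a11, Slc3a2 and Asns kept their calls whichever single array or mouse was left out. Atf4 lost its call without 11 of 16 arrays (0.27, adjusted p = 0.194, without the myoepithelial array of wild-type mouse 2), and so did Ddit3 without that array (0.46, adjusted p = 0.126). Psat1 lost its call without the myoepithelial array of knockout mouse 1 (0.65, adjusted p = 0.0685), and Ppp1r15a without knockout mouse 2 (0.52, adjusted p = 0.123).

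Within the luminal lineage the means of the same arm were mostly higher in alveolar progenitors. In ductal against alveolar progenitors 0 of the 10 means were higher, and the median was -0.49 against 0.011 over all genes. In that comparison 3 members were called, all lower (10.7% of all genes were): Psat1 (-1.41, SE 0.26, adjusted p = 0.00178), Slc3a2 (-0.90, SE 0.17, adjusted p = 0.00192) and Atf4 (-0.69, SE 0.19, adjusted p = 0.0194). In non-clonogenic luminal cells the same members were called lower by the following differences: Psat1 by -1.95 (SE 0.26, adjusted p = 0.000112), Slc3a2 by -0.99 (SE 0.17, adjusted p = 0.000709) and Atf4 by -0.56 (SE 0.19, adjusted p = 0.0408). These comparisons share the alveolar arrays. The calls of Psat1 and Slc3a2 held without each mouse and each array. The second Atf4 probe set gave 0.07 in ductal against alveolar progenitors, so that the fall of Atf4 rests on 1 of its 2 probe sets, and without knockout mouse 1 neither Atf4 call held (-0.65 and -0.48, adjusted p = 0.124 and 0.226). Atf5, Trib3 and Chac1 were called in no population comparison.

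**Figure D2:**
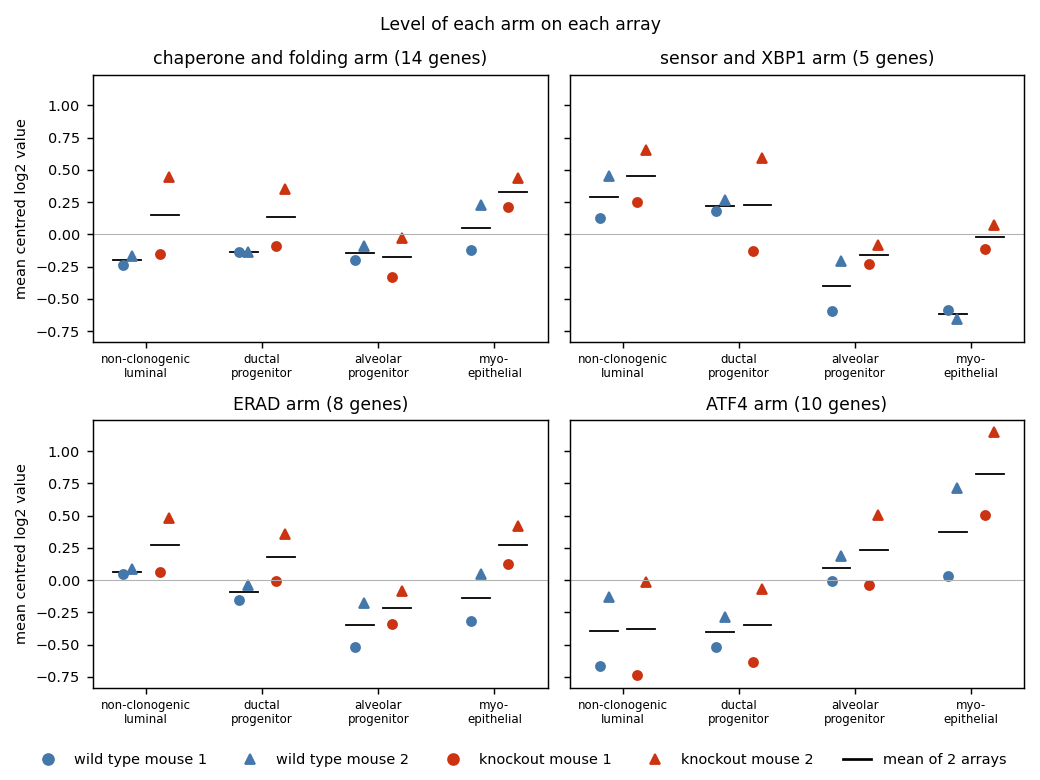
Mean level of each arm on each array, as the mean over its genes of log2 value minus the gene's own mean, with the arrays grouped by population and genotype. The ATF4 arm is highest in myoepithelial arrays and lowest in the Sca1+ populations, and within most groups mouse 2 lies above mouse 1.

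**Figure D3:**
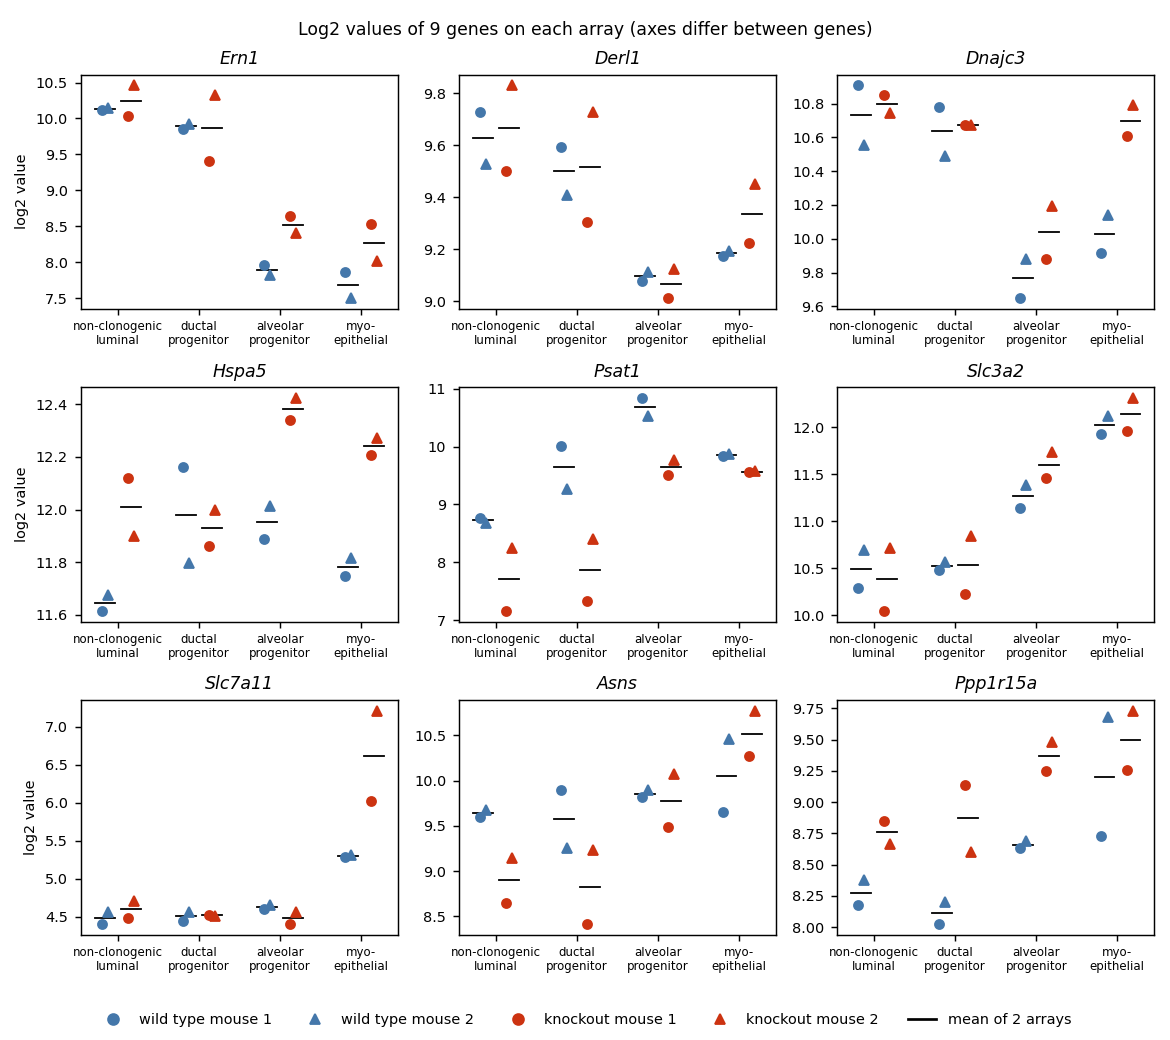
Log2 values of Ern1, Derl1, Dnajc3, Hspa5, Psat1, Slc3a2, Slc7a11, Asns and Ppp1r15a on each of the 16 arrays, 1 point for each mouse, by population and genotype. Ern1, Derl1 and Dnajc3 step down from the Sca1+ populations to alveolar progenitors, Slc3a2 steps up, and the knockout points of Psat1 lie below the wild-type points in all 4 populations.

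The other genes of these pathways, from lists that share no gene with the 37, were read in the same way. Of 24 further ATF4 target genes, 15 were higher and 2 lower in myoepithelial cells (23.5% and 24.4% of all genes), with a median of 0.93. They included Vldlr (2.63), Aldh1l2 (2.06), Slc7a5 (1.99) and Cth (1.75), which act in lipoprotein uptake, one-carbon metabolism, amino acid import and cysteine synthesis, while Nupr1 was lower (-2.67). Other folding and translocation genes did not move that way. The same shares are the background for every list in this comparison, and the ERAD and sensor counts lay nearer to them. Of 22 other folding genes 1 was higher and 10 were lower (median -0.27, Txndc12 -0.97 and Sil1 -0.81), and of 23 genes of translocation and signal peptide handling 1 was higher and 13 were lower (median -0.31, Srp14 -1.03 and Tram1 -0.98). Of 15 further ERAD genes 2 were higher and 5 lower, among them Os9 (-1.23), Edem2 (-1.02) and Erlec1 (-0.76). Of 18 other sensors and activators 5 were higher and 7 lower, with Creb3l2 at 1.48 and Mbtps2, the protease that releases ATF6, at -0.78. In non-clonogenic luminal cells against alveolar progenitors, other folding genes had 8 higher and 1 lower (15.9% and 12.6% of all genes). Among them were Ero1b at 1.12, Uggt1 at 0.81 and the peroxiredoxin gene Prdx4 at -1.44.

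Other lists moved in the same comparisons. Of all genes, 23.5% were called higher in myoepithelial cells and 12.6% lower in non-clonogenic luminal than in alveolar cells. Of 17 genes of hypoxia and glycolysis, 12 were higher in myoepithelial cells (median 0.63, Car9 3.60), and 8 of 9 endothelial markers were higher there too (median 0.67). Of 14 milk genes 10 were lower and 0 higher in non-clonogenic luminal than in alveolar arrays (Csn3 -6.33), and of 21 immediate early and heat shock genes 11 were lower. The part of these lists in the members' differences was not tested.

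The knockout was compared with the wild type within each population and over the mean of the 4. Few members passed the test within a population. None was called in non-clonogenic luminal cells (2.06% of all genes were) or in alveolar progenitors (0.620%), where 6 and 4 members had an unadjusted p under 0.05 in limma. In turn, 1 was called in ductal progenitors, where 7.44% of all genes were, and 1 in myoepithelial cells, where 1.01% were. Over the mean of the populations 4 were called, 3 higher and 1 lower, against 10.2% of all genes, 3.18% higher and 7.04% lower. An F test for a knockout effect that differed between populations called 0 members, 3 having an unadjusted p under 0.05 (0.667% of all genes were called).

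Most members nevertheless had a higher mean in the knockout. In non-clonogenic luminal, ductal, alveolar and myoepithelial arrays 30, 27, 21 and 34 of the 37 means were higher, while over all genes 57.2%, 62.3%, 50.5% and 42.7% were. The members' median differences were 0.22, 0.15, 0.10 and 0.38, and those of all genes 0.035, 0.078, 0.0015 and -0.032. Both knockout arrays lay above both wild-type arrays for 11, 13, 12 and 15 members, against 28.7%, 38.0%, 20.7% and 17.5% of all genes. The members' share was above that of all genes in alveolar and myoepithelial cells and near it in the Sca1+ populations.

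Hspa5 rose in the knockout over the 4 populations (0.30, SE 0.068, adjusted p = 0.0165). In the wild type and the knockout it was, in turn, 11.61 and 11.68 against 12.12 and 11.90 in non-clonogenic luminal cells, 12.16 and 11.80 against 11.86 and 12.00 in ductal progenitors, 11.89 and 12.01 against 12.34 and 12.42 in alveolar progenitors and 11.75 and 11.81 against 12.21 and 12.27 in myoepithelial cells. The knockout arrays were the higher ones in 3 populations, and the genotypes overlapped in ductal progenitors. There the difference was -0.049, while the second Hspa5 probe set gave 0.46. The call held without each single array and was lost without knockout mouse 1 (0.31, adjusted p = 0.0944) or knockout mouse 2 (0.29, adjusted p = 0.123). The remaining chaperones were not called. The arm's median difference was 0.33, 0.18, 0.0016 and 0.28 in the 4 populations, in the same order as above, and the largest single differences, 1.46 and 1.09 in ductal and non-clonogenic luminal cells, were those of Sdf2l1.

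The sensors and the XBP1 branch had 0 called members under the knockout. Xbp1 was 10.27 and 10.58 against 10.86 and 11.19 in myoepithelial arrays of the wild type and the knockout, and its knockout array was the higher in each parent pair and each population but 1, alveolar pair 1. Its difference over the populations was 0.37 (SE 0.12, adjusted p = 0.0683). The 5 genes had a median difference of 0.60 in myoepithelial cells and -0.022 in ductal progenitors. The latter is the value of Ern1 on its brightest probe set, while its other probe sets gave 0.38 to 0.74 there. Of these a dimmer probe set (mean 5.98) passed over the populations (0.44, limma adjusted p = 0.038 over all probe sets). In myoepithelial cells Ern1 was 7.86 and 7.50 against 8.53 and 8.02, with a difference of 0.59 (SE 0.28, adjusted p = 0.369). The ERAD arm likewise had 0 called, with medians of 0.18, 0.23, 0.087 and 0.46. Edem1 and Sel1l came closest to a split by genotype, with knockout arrays above wild-type arrays in 3 populations each. The share of all genes split in that many populations was not counted. In myoepithelial cells the lower knockout array of Edem1 was at 9.083 and the higher wild-type array at 9.081. The second Edem1 probe set overlapped between genotypes in non-clonogenic luminal cells.

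The ATF4 arm held most of the members that passed. Psat1, which encodes the aminotransferase that makes phosphoserine on the way to serine, fell in the knockout (-1.03, SE 0.20, adjusted p = 0.00751). Its wild-type and knockout values were 8.77 and 8.69 against 7.16 and 8.25 in non-clonogenic luminal cells, 10.02 and 9.26 against 7.34 and 8.40 in ductal progenitors, 10.84 and 10.52 against 9.51 and 9.78 in alveolar progenitors and 9.84 and 9.88 against 9.56 and 9.57 in myoepithelial cells. Every knockout array was below both wild-type arrays of its population, which held for no other member and for 3.07% of all genes. In ductal progenitors alone the difference was -1.77 (SE 0.37, adjusted p = 0.0225), a call that was lost without knockout array 1 (-1.26, adjusted p = 0.182) or wild-type array 1 (-1.40, adjusted p = 0.238), and without knockout mouse 2 (-2.30, adjusted p = 0.0775). Over the populations the call held without each single array and was lost without knockout mouse 1 (-0.73, adjusted p = 0.0509) or wild-type mouse 1 (-0.89, adjusted p = 0.0745). Asns, another amino acid synthesis gene, was lower in both Sca1+ populations of the knockout without overlap, 9.60 and 9.67 against 8.65 and 9.15 and 9.89 and 9.25 against 8.42 and 9.24, and was not called there. Genes of cell division fell alongside, and their part in the Psat1 difference was not tested.

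Ppp1r15a rose over the populations (0.56, SE 0.15, adjusted p = 0.0379). Its wild-type and knockout values were 8.18 and 8.38 against 8.85 and 8.67 in non-clonogenic luminal, 8.03 and 8.20 against 9.14 and 8.60 in ductal, 8.63 and 8.69 against 9.25 and 9.48 in alveolar and 8.73 and 9.68 against 9.26 and 9.73 in myoepithelial arrays. Only the myoepithelial arrays overlapped. Atf5, an ATF4-induced transcription factor, rose by less (0.41, SE 0.12, adjusted p = 0.0475), with values of 6.32 and 6.23 against 5.96 and 6.40, 5.85 and 5.87 against 6.09 and 6.69, 6.40 and 6.15 against 6.50 and 6.79 and 5.74 and 6.16 against 6.54 and 7.01 in the same order and an overlap in non-clonogenic luminal cells. Atf5 was read by 1 dim probe set (mean 6.29, median of all probe sets 6.38). Neither the Atf5 nor the Ppp1r15a call was firm: leaving out single arrays ended that of Atf5 in 12 of 16 cases and that of Ppp1r15a in 9. Without knockout mouse 2 Atf5 was at 0.18 (adjusted p = 0.323), and without wild-type mouse 1 Ppp1r15a was at 0.39 (adjusted p = 0.178). Of 21 immediate early and heat shock genes 4 were called higher in the knockout over the populations (Fosb, Junb, Klf4 and Klf6), against 3.18% of all genes. The part of these 4 in the Ppp1r15a difference was not tested.

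Slc7a11 rose in knockout myoepithelial cells (1.32, SE 0.26, adjusted p = 0.034), where its values were 5.29 and 5.31 against 6.02 and 7.21 (wild type against knockout). Both knockout arrays were the higher, and they differed from each other by 1.19. The second probe set was not called (1.78, SE 0.54, adjusted p = 0.172 over all probe sets). Its values were 4.97 and 7.46 in the wild type and 7.62 and 8.37 in the knockout, so that the array of wild-type mouse 1 lay far below the other 3. The call was lost without either wild-type mouse (adjusted p = 0.0772 and 0.221) or knockout mouse 2 (0.72, adjusted p = 0.0717), and without 11 of the 16 single arrays. In the same arrays all 9 endothelial markers had a higher mean in the knockout (median 0.58), with Kdr called, and the mean level of that list, centred on each gene, was 0.61 and 1.21 in the knockout and 0.30 and 0.32 in the wild type; its part in the Slc7a11 difference was not tested. Of the 24 further ATF4 targets 0 were called in any knockout comparison. Among the other lists, Prdx4 (-1.06), Tmx1 (-0.52), Pdia5 (-0.52) and Eif2ak2 (-0.49) were lower and Ube2g2 (0.59) and Traf2 (0.25) higher in the knockout over the populations.

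**Figure D4:**
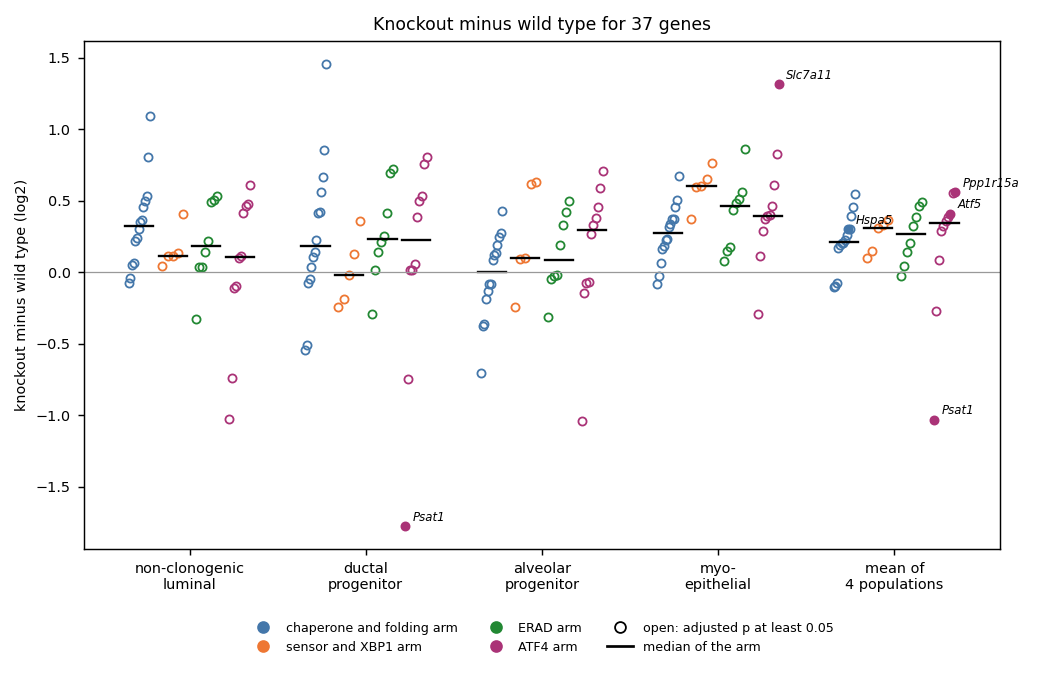
Difference between knockout and wild type (log2) of each of the 37 genes in each population and over their mean, by arm, with the arm's median as a line and called genes as filled points. Most points of the myoepithelial column lie above 0, Psat1 lies lowest in ductal progenitors, and few points are filled.

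The parents were shared across genotypes, so each knockout mouse was also set against the wild-type mouse of the same parents. In myoepithelial cells 33 and 32 of the 37 members were higher in the knockout in pair 1 and pair 2, and 30 were higher in both, as were 3975 of the 17097 genes. In the other populations pair 1 gave 20, 19 and 21 higher members and pair 2 gave 32, 33 and 27 (non-clonogenic luminal, ductal and alveolar). The members' medians were 0.012, 0.0071 and 0.071 in pair 1 and 0.30, 0.32 and 0.13 in pair 2. Of all genes, 9233, 10966 and 8479 were higher in pair 1 and 9509, 9137 and 8479 in pair 2. Their medians were 0.025, 0.13 and -0.0015 in pair 1 and 0.035, 0.019 and -0.0017 in pair 2. In pair 1 of both Sca1+ populations the members' median was thus below that of all genes. In the Sca1+ populations the members' shift thus lay mostly in pair 2, in myoepithelial cells in both pairs, and in alveolar progenitors it was small in both, where the ERAD arm had the larger median in pair 1 (0.17 against 0.045). Over the populations the differences of the 4 called members had the same sign in both pairs: 0.28 and 0.32 for Hspa5, 0.20 and 0.62 for Atf5, 0.73 and 0.38 for Ppp1r15a, and -1.48 and -0.59 for Psat1. With the parent pair as a block, 18 members were called over the populations, 17 higher and 1 lower, and 20.1% of all genes were; whether the pairs share more than parents is not given.

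Members differed between mice of 1 genotype as well. Mouse 2 was above mouse 1 in all 8 groups of population and genotype for 8 members, Sdf2l1, Ero1a, Xbp1, Dnajb9, Ddit3, Trib3, Chac1 and Slc3a2, and for 1.47% of all genes. Chac1, which encodes a glutathione-degrading enzyme, showed this most: its values in mice 1 and 2 were 6.71 and 8.61 in wild-type non-clonogenic luminal cells, 7.00 and 9.15 in those of the knockout, 7.92 and 9.77 in wild-type myoepithelial cells, and 8.77 and 10.14 in those of the knockout. The gap was 0.60 to 2.15 over the 8 groups, while the knockout difference over the populations was 0.39 (SE 0.46, adjusted p = 0.625). Trib3, the pseudokinase that feeds back on ATF4, had gaps of 0.78 to 1.46, Ero1a of 0.081 to 2.23, and Xbp1 of 0.25 to 0.45. Sdf2l1 was level between the mice in wild-type non-clonogenic luminal cells (gap 0.0001), against 2.04 in those of the knockout. Knockout mouse 2 was the highest of its population's 4 arrays for 29, 27, 22 and 28 of the 37 members. How often that array was the highest over all genes was not counted. Knockout mouse 2 was above knockout mouse 1 for 33, 34, 33 and 32 members, in the same order, and for 8739, 7454, 8522 and 8246 of the 17097 genes. Without knockout mouse 2 the members' median knockout difference over the populations was 0.061, without knockout mouse 1 it was 0.40, and with all mice 0.29. The consensus correlation of arrays of a mouse in the fit was 0.0383 over all genes, while deviations from the group mean correlated across genes at 0.052 to 0.58 between populations of a knockout mouse and at -0.17 to 0.56 of a wild-type mouse. With that consensus the tests treat the 4 arrays of a mouse as nearly independent. Yet Chac1 and the other 7 members above, apart from Sdf2l1 in wild-type non-clonogenic luminal cells, were shifted the same way in all arrays of a mouse. Genes of hypoxia and glycolysis were also higher in mouse 2 in 8 of 8 groups (0.15 to 0.98) and fibroblast markers lower in 8 of 8 (-1.35 to -0.10); their part in the members' gaps was not tested.

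**Figure D5:**
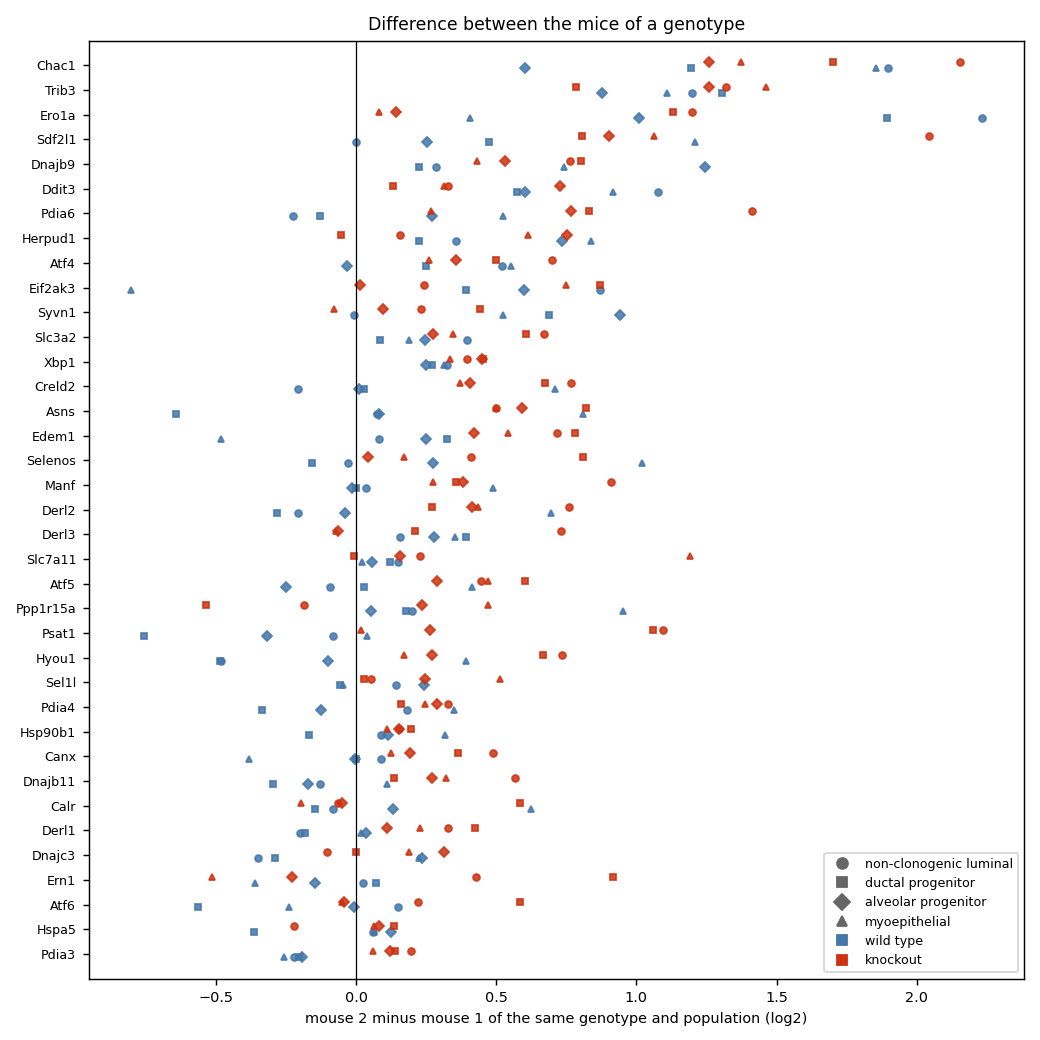
Value of mouse 2 minus value of mouse 1 (log2) for each of the 37 genes in each of the 8 groups of population and genotype, 1 point for each gene and group, with colour for genotype and shape for population. Points lie above 0 for 32 to 34 members in the knockout groups and for 20 to 30 in the wild-type groups.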

How the data were processed

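Total RNA of sorted cells was amplified and hybridised to 16 arrays. The values are log2 intensities per probe set as the authors deposited them. RMA and limma are named in the submitters' processing notes without a role or version, and no source used here gives the genome build. Of 45141 probe sets, 28898 carried 1 gene symbol, 551 several and 15588 none. For each of 17097 genes the probe set with the highest mean was kept. Array medians were 6.35 to 6.40, and the number of arrays limits the precision. limma 3.58.1 (R 4.3.3, statmod 1.5.0) fitted 8 group means with the mouse as a random block (duplicateCorrelation) and a mean-variance trend, and p-values were Benjamini-Hochberg adjusted over all genes. The script was tested on simulated data. The members and lists were chosen with earlier results of these data known. All 37 members could be named; of the other lists, up to 4 called genes with the largest differences in each comparison, and marker genes where they moved with a result. Alternatives were the blocks, the trend, array weights, quantile normalization, a filter on dim genes, other uses of the probe sets, the arrays of 1 population alone, and leaving out each mouse or array. All promoter sequences are from RefSeq. No sample was left out, and the samples have no other batch label.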

Additional observations from a re-analysis of the deposited data

Results flagged for a closer look

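For 4 members the knockout and wild-type arrays did not overlap in 2 populations and lay in opposite order there. Over all genes the share with such an opposite order was not counted. In single populations both knockout arrays lay above both wild-type arrays for 17.5% to 38.0% of all genes. The difference between those 2 populations was not tested on its own, and the F test over all 4 populations (limma, Benjamini-Hochberg adjusted) called none of them. Sdf2l1 was higher in the knockout among ductal progenitors (1.46) and non-clonogenic luminal cells (1.09) and lower in alveolar progenitors (-0.71), gaps of 2.17 and 1.80 between populations (adjusted p of the F test = 0.368). Calr was higher in alveolar progenitors (0.12) and lower in ductal progenitors (-0.54), a gap of 0.66 (adjusted p = 0.439). The second Calr probe set gave -0.14 in ductal progenitors, where its genotypes overlapped. Selenos was higher in alveolar progenitors (0.33) and lower in non-clonogenic luminal cells (-0.33), also a gap of 0.66 (adjusted p = 0.625). That order was of its brightest probe set, and the others gave -0.020 and 0.49 in non-clonogenic luminal cells. Slc7a11 was higher in myoepithelial cells (1.32) and lower in alveolar progenitors (-0.15), a gap of 1.46 (adjusted p = 0.137), and its alveolar values were under the lower quartile of each array.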

How the results depend on the processing

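Counts of called members moved by more than 1.5 times as follows. With the parent pair as a fixed replicate block they were 4 for the knockout in ductal progenitors, 2 in myoepithelial cells and 18 over the populations. With the mouse as a fixed replicate block they were 24 across the populations and 11 for ductal against alveolar progenitors. Array weights gave 1 for the knockout in alveolar progenitors, 0 in myoepithelial cells, and 11 for myoepithelial against luminal cells. The knockout in myoepithelial cells also gave 0 without the trend, without dim genes (Slc7a11 is then not tested) and from its own 4 arrays, and ductal progenitors gave 0 from theirs; the causes were not tested. Without the replicate block for the mouse the counts were 4 for the knockout over the populations, 13 for myoepithelial against luminal cells and 8 for non-clonogenic luminal against alveolar cells. Populations of 1 mouse share that animal. Deviations of mice of the same parents correlated at -0.043 to 0.074 in the 4 populations, and the main fit did not take the labels' numbers as pairs. For the members this choice mattered. Of them, 8 were higher in mouse 2 in all 8 groups, and over the populations 4 were called in the main fit against 18 with the pair as a block. Leaving out 1 mouse or 1 array, where a lone sample is assumed to vary like the others, gave 0 to 2 members in ductal progenitors, 0 to 1 in myoepithelial cells, 1 to 8 over the populations, 0 to 1 for a knockout effect that differed, 8 to 18 across the populations, 7 to 21 for myoepithelial, 3 to 9 for ductal against alveolar and 4 to 14 for non-clonogenic luminal against alveolar cells. The other 3 comparisons stayed at 0. Of the 41 called differences of single members, 332 of 362 refits under other settings and 568 of 820 leave-outs kept the call, and 0 changed sign. Atf5 lost its knockout call under 4 of 7 settings (adjusted p up to 0.0679), Slc7a11 in myoepithelial cells under 3 of 8 (up to 0.477) and Psat1 in ductal progenitors from its own 4 arrays (0.132). Atf4 lost all 3 population calls with the mean of its probe sets. With 2 mice a genotype and dim signal for Slc7a11, Atf5, Atf6 and Pdia3, differences that were not called are not shown to be absent.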

Other observations

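Several members had probe sets that disagreed. Hyou1 differed between knockout and wild type in non-clonogenic luminal cells by -0.077 on its brightest probe set and by 0.63 and 0.66 on the others, and Hspa5 in ductal progenitors by -0.049 and 0.46. Ern1 in non-clonogenic luminal cells differed by 0.11 on its brightest probe set and by 0.34 to 0.97 on the others. For Xbp1 in myoepithelial cells the other probe sets gave 0.35 to 0.95. Markers of B cells and plasma cells were nearly flat over the arrays (list level -0.23 to 0.22).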
